A study of Rattus norvegicus with 10 samples.

Results

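The transcripts described here code for carriers that move zinc, phosphate, sugars, amino acids, vitamins and monocarboxylates across membranes. They were chosen by name alone, as every non-control probe whose gene name belongs to the solute carrier families Slc1, Slc2, Slc3, Slc5, Slc6, Slc7, Slc16, Slc30, Slc34, Slc36, Slc38, Slc39 or Slc43. This gave 119 gene names on 157 probes, of 35469 names on 41012 probes on the array. 1 of the names, Slc7a6os, is not a carrier but the neighbour of Slc7a6 on the opposite strand, and it is counted with the members because its name fits the rule. Milk was taken from 3 F344/N rat dams on d 2 (colostrum), d 9 and d 16 postpartum, and each of the 9 whey samples was put on its own 1-colour array. Serum of the same dams was taken on d 21 and mixed, so serum had 1 array and no replicate. Whey is milk freed by centrifugation of its fat, its cells and its casein, and the study also passed whey and serum through filters. Dams had been kept from their litters and given oxytocin before milking. The numbers limit the precision, since each day rests on 3 dams and serum on 1 pooled array.

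Carriers of these families are membrane proteins that set how much of a nutrient enters or leaves a cell or an organelle. In the lactating mammary gland, glucose for lactose enters through the glucose carrier Slc2a1, amino acids for casein enter through several sodium-coupled carriers and exchangers, and phosphate is carried by Slc34a2. Zinc exporters of the Slc30 family (ZnT) move zinc out of the cytosol, into vesicles of the secretory pathway or out of the cell, whereas importers of the Slc39 family (ZIP) move it into the cytosol. What was measured here is mRNA in whey and not carrier protein or transport.

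The arrays differed in brightness, and the number of carriers detected moved with it. The 75th percentile of the processed signal was 12.0, 19.1 and 26.7 on d 2, 20.2, 39.7 and 78.7 on d 9, and 20.5, 38.0 and 32.6 on d 16, in dams 1 to 3, and 3.98 in serum. The arrays detected 13, 17 and 20 member probes on d 2, 23, 29 and 37 on d 9, 23, 32 and 27 on d 16, and 2 in serum, where a detected probe is one well above background whose processed signal is over 20. The part that brightness has in the day differences was not tested. The d 2 arrays of dams 1 and 2 shared slide 1, the d 2 array of dam 3 lay with all d 9 arrays on slide 2, and all d 16 arrays lay with serum on slide 3, which was scanned on another day. Mammary markers were present in whey on every array, with Csn2, Lalba, Wap, Krt8, Krt18, Krt19, Cdh1 and Epcam all well above background, and their mean log2 intensity ranged from 11.95 to 12.00 on d 2, from 11.29 to 11.66 on d 9 and from 11.82 to 12.01 on d 16. Within the list, Krt8, Krt18 and Krt19 fell on both later days (log2 changes by d 16 of -1.16, -0.72 and -2.29), while Csn2, Lalba and Wap rose by d 16 (1.05, 1.02 and 0.70). Of the macrophage markers, Cd68, Lyz2 and C1qb rose by d 9 and by d 16 while Cd14 fell, and the mean of the list ranged from 2.75 to 3.49 on d 2, from 3.48 to 4.00 on d 9 and from 3.95 to 4.35 on d 16. Of 5 erythroid markers on the array, none was tested in whey, whereas their mean was 11.54 in serum. Whether these marker levels had a part in the carrier values was not tested. As every array received the same mass of RNA, fewer cells or vesicles of a type and less of a transcript in each cannot be told apart.

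**Figure D1:**
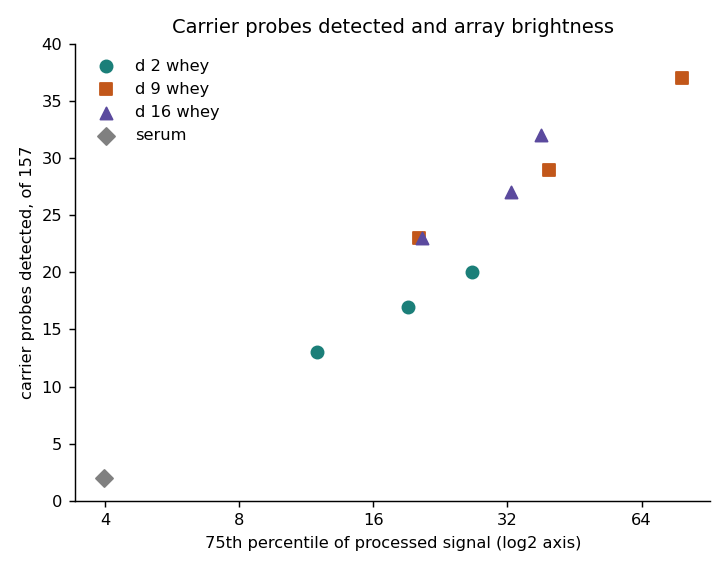
Number of carrier probes detected on each array, of 157, against the 75th percentile of the processed signal of that array on a log2 axis. Points are single arrays, with 3 for each whey day and 1 for serum, and the count runs from 2 on the dim serum array to 37 on the brightest d 9 array.

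Whey held transcripts of 37 of the 119 gene names, from 44 probes, and 82 names were detected in neither whey nor serum. The 44 probes were 28.0% of the member probes, against 41.1% of all probes on the array. By day, 20 probes for 19 genes were detected on d 2, 40 probes for 33 genes on d 9 and 32 probes for 29 genes on d 16, and 19 genes were detected on all 3 days. Among the zinc carriers, 7 of 10 Slc30 genes and 7 of 14 Slc39 genes were detected, the largest numbers of any family. Among the sugar carriers, 4 of 10 Slc2 genes and 2 of 12 Slc5 genes were detected. Among the amino acid carriers these were 1 of 7 Slc1 genes, both Slc3 genes, 4 of 17 Slc6 genes, 2 of 14 Slc7 names (Slc7a1 and Slc7a6os) and 3 of 11 Slc38 genes. None of the 4 Slc36 genes and none of the 3 Slc43 genes was detected. For phosphate and monocarboxylates, 2 of 3 Slc34 genes and 3 of 12 Slc16 genes were detected. Below this limit of detection on every array were, of the amino acid families, Slc1a1, Slc1a3, Slc1a4, Slc1a5, Slc1a6, Slc1a7, Slc36a1 to Slc36a4, Slc38a1, Slc38a3, Slc38a4, Slc38a5, Slc38a6, Slc38a8, Slc38a9, Slc38a11, Slc43a1 to Slc43a3, Slc7a2 to Slc7a11, Slc7a13 and Slc7a15. In Slc6, whose members carry amines, amino acids and creatine, these included Slc6a2, Slc6a3, Slc6a5, Slc6a7, Slc6a9, Slc6a11, Slc6a12, Slc6a13, Slc6a14, Slc6a15, Slc6a17 and Slc6a20. Among sugar, vitamin and ion carriers they were Slc2a2, Slc2a3, Slc2a5, Slc2a6, Slc2a10, Slc2a12, Slc5a1, Slc5a2, Slc5a3, Slc5a4b, Slc5a5, Slc5a7, Slc5a9, Slc5a10, Slc5a11 and Slc5a12. Among mineral and monocarboxylate carriers they included Slc30a1, Slc30a8, Slc30a10, Slc34a1, Slc39a1, Slc39a2, Slc39a5, Slc39a9, Slc39a10, Slc39a12, Slc39a14, Slc16a4, Slc16a7, Slc16a8 and Slc16a10 to Slc16a14. A probe enters the tests below if it was detected on any whey array, so that a probe which is dim on 1 day enters through its brighter day, and the counts below cover the 44 detected probes and not all 157.

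From d 2 to d 9, the zinc exporters Slc30a2 and Slc30a4, the phosphate carrier Slc34a2 and 3 amino acid or amine carriers rose, and 5 of the 7 detected Slc30 genes were not called higher. Of the 44 probes, 8 rose and 1 fell at an adjusted p under 0.05 (limma, 3 arrays a day, from the same 3 dams, without a block for the dam), where 17.7% of all tested probes were called, 11.2% higher and 6.46% lower. The called share of the members, 20.5%, was near that background. The risers were Slc30a2 and Slc34a2, each with 2 probes, Slc30a4, Slc6a4, Slc38a2 and Slc1a2, and the fall was that of Slc30a3. The d 2 and d 9 arrays were fully separated for 18 of 44 probes, against 38.8% of all probes, with d 9 higher for 15 (24.1% of all probes) and lower for 3 (14.7%). The median change of the members was 0.57 on the log2 scale and that of all tested probes 0.11. Of the members' 44 changes 35 were positive, against 58.4% of all tested probes. Since 20 member probes were detected on d 2 and 40 on d 9, many entered through the later day, which favours a positive change. When each of the 9 whey arrays had to measure a probe well above background, 17 members stayed. Their median change was 0.12, against 0.01 for all probes so kept, a smaller gap. With the slide as a fixed block over the d 2 and d 9 arrays, 0 members passed (limma), and 0.867% of all probes passed. Slide 1 held d 2 alone, so these log2 changes come from slide 2, with 1 array of d 2 (dam 3) and 3 of d 9. They were 1.95 for Slc34a2, 1.76 for Slc30a2, 1.28 for Slc30a4, 1.00 for Slc38a2, 0.85 for Slc1a2, 1.17 for Slc6a4 and -1.87 for Slc30a3. A fit within slide 2 alone gave the same log2 changes. All 9 called probes kept their sign, which is no separate check, since the main fit holds the same arrays. By the Tukey-Kramer test of the study's methods with adjustment 4 passed, all higher, where 7.64% of all tested probes passed. Both probes of Slc30a2, the first probe of Slc34a2, Slc30a4 and Slc30a3 were lost. With the dam as a block 13 passed, 9 higher and 4 lower, where 18.3% of all probes passed. The count was 26, all higher, with spike-in scaling, where 40.8% of all probes passed. It was 14, 13 of them higher, without d 2 whey of dam 3, where 16.1% of all probes passed.

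From d 2 to d 16 the same zinc and phosphate carriers and Slc6a4, Slc38a2 and Slc1a2 were called higher, and Slc2a1, Slc6a6 and Slc30a6 were called as well. Both comparisons use the same d 2 arrays. Here 11 of 44 probes rose and 1, a probe of the zinc importer Slc39a8, fell, with 28.5% of all tested probes called, 16.0% higher and 12.5% lower. The members' share, 27.3%, was again near the background. The d 2 and d 16 arrays were fully separated for 16 of 44 probes, against 48.2% of all probes, with d 16 higher for 12 (25.9%) and lower for 4 (22.3%). The median change was 0.59 for the members and 0.04 for all probes, with 31 of 44 changes positive, against 52.65% of all tested probes. Among the 17 member probes that were well above background on all 9 whey arrays, where no day is dim, 7 were called and 5 of these rose, against 3971 of all 9819 such probes. The median change there was -0.06 for the members and -0.05 for all, so the members' higher median was absent among them. With spike-in scaling 7 of 44 passed, all higher, where 4.47% of all tested probes passed. The calls of Slc2a1, Slc1a2, Slc38a2, Slc30a4, Slc30a6 and the Slc39a8 probe were lost. Of their log2 changes, those of Slc2a1 (1.68), Slc1a2 (1.66), Slc38a2 (1.63), Slc30a4 (1.44) and Slc30a6 (1.98) were larger. Only that of the Slc39a8 probe (-0.60) was smaller in size. Slide and day cannot be told apart for d 16. In build rn4, to which the array files refer, the called probes besides those of Slc30a2 lie at chr3:109644545-109644604 (Slc30a4), chr6:20957254-20957313 (Slc30a6), chr6:25261113-25261557 (Slc30a3), chr2:233402335-233402394 (Slc39a8), chr14:62660122-62660181 and chr14:62663454-62664614 (Slc34a2), chr5:139718779-139718838 (Slc2a1), chr3:87988361-87988420 (Slc1a2), chr7:135365535-135365594 (Slc38a2), chr4:125940810-125942515 (Slc6a6) and chr10:67146727-67146786 (Slc6a4).

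From d 9 to d 16, no carrier was called. limma gave 0 of 44 probes and called 1.42% of all tested probes, 0.558% higher and 0.861% lower. At an unadjusted p under 0.05 were 6 of the 44 and 18.7% of all tested probes. The Tukey-Kramer test also called 0 members, and 0% of all tested probes. The arrays of these days were fully separated for 8 of 44 probes, against 29.4% of all probes, with d 16 higher for 7 (11.8%) and lower for 1 (17.6%). The lowest unadjusted p-values were those of the 2 Slc30a2 probes, described below. Slide and day cannot be told apart in this comparison. An F test over the 3 days called 12 of 44 members and 25.6% of all probes.

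**Figure D2:**
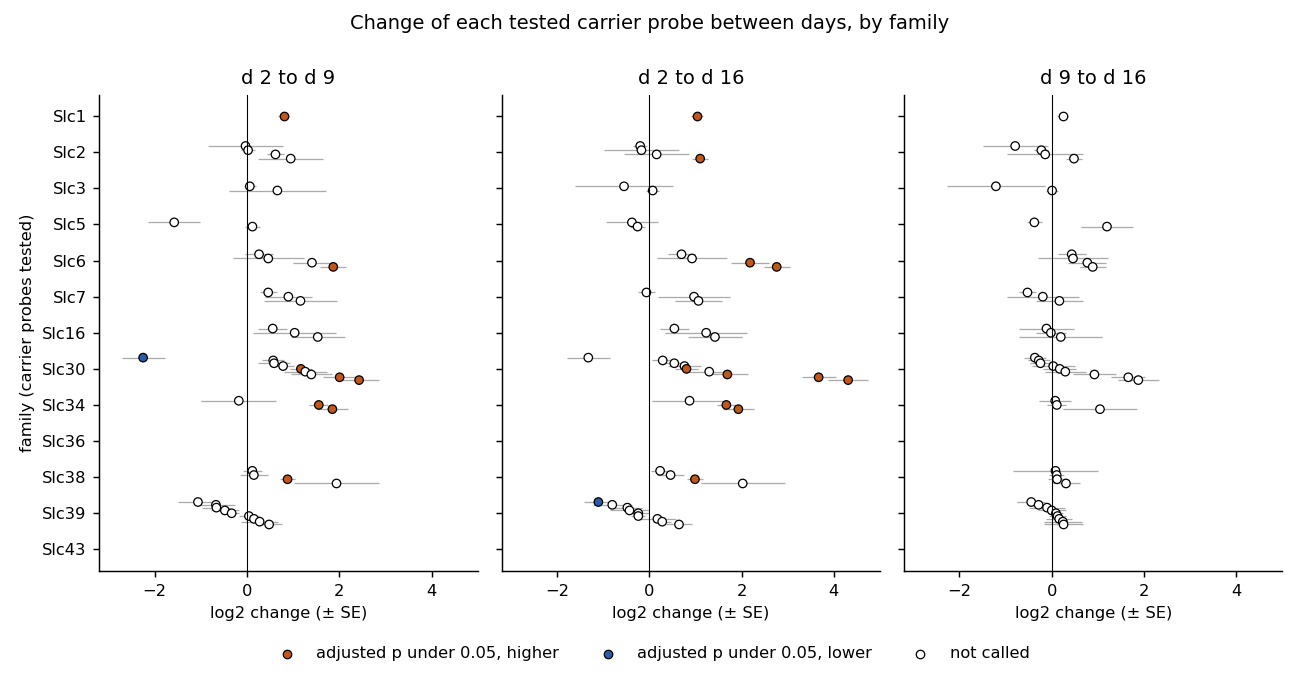
Log2 change with its SE for each of the 44 tested carrier probes, by family, for d 9 against d 2 (left), d 16 against d 2 (middle) and d 16 against d 9 (right). Filled points have an adjusted p under 0.05 (limma), 9 in the left panel, 12 in the middle and 0 on the right, and the Slc36 and Slc43 rows are empty because no probe of theirs was detected in whey.

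Slc30a2, the zinc exporter that loads vesicles of the secretory mammary cell and whose loss in women gives zinc-poor milk, showed the largest change of the carriers. Its log2 normalized intensity was 1.30, 2.81 and 3.07 on d 2, 4.51, 4.79 and 5.17 on d 9 and 6.80, 6.42 and 6.89 on d 16 in dams 1 to 3, and 1.76 in serum. The 3 days did not overlap, and the order of the days held in each of the 3 dams. The probe was not well above background on any d 2 array and was so on all d 9 and d 16 arrays, so that its folds against d 2 are bounds. The level rose from 2.39 ± 0.95 (SD, n = 3) to 4.82 ± 0.33 on d 9, a log2 change of 2.43 ± 0.44 (SE, adjusted p = 0.011), or at least 2.52-fold. By d 16 it was 6.70 ± 0.25, a log2 change of 4.31 ± 0.44 (adjusted p = 0.000746), or at least 9.25-fold. Between d 9 and d 16 the change was 1.88 ± 0.44, or 3.67-fold, with an adjusted p of 0.0867. That last change had an adjusted p of 0.018 without d 2 whey of dam 1, 0.019 with 75th percentile scaling and 0.36 with spike-in scaling. A second probe of the gene gave log2 changes of 2.01 ± 0.37 and 3.67 ± 0.37 from d 2 (adjusted p = 0.0114 and 0.00072), and from d 9 to d 16 a change of 1.66 ± 0.37 (adjusted p = 0.0774). The probes lie at chr5:153096970-153097029 and chr5:153098295-153098354 of build rn4, the plus strand. Before normalization the first probe had processed signals of 2.40, 5.69 and 9.37 on d 2, 20.2, 49.0 and 131 on d 9 and 101, 156 and 175 on d 16, and 1.96 in serum. In each dam the unnormalized signal was also higher on d 16 than on d 9. The 75th percentiles of the d 9 and d 16 arrays were 20.2 and 20.5 in dam 1, 39.7 and 38.0 in dam 2 and 78.7 and 32.6 in dam 3. The part of brightness, slide or scan day in this was not tested.

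The upstream sequences of 3 risers of mineral transport, Slc30a2, Slc30a4 and Slc34a2, are shown. They were picked because each holds the core of the element bound by the zinc sensor Mtf1. The zinc exporter Slc30a6 also rose but holds no match, so the 3 do not stand for all such risers. Whether Mtf1 had a part in these rises was not tested. The sequences are from RefSeq (build GRCr8) and run 5′ to 3′ over the 250 bases before the start of the gene. Capitals mark TGCACNC or TGCGCNC on either strand, which 20.6% of the 33469 promoters of the same length hold, and 29 of the 95 found for 89 carrier genes (30.5%). For Slc30a2 the table gives a second start, at chr5:151843931-151844180, whose 250 bases hold none.
Slc30a2, chr5:151843201-151843450, plus strand: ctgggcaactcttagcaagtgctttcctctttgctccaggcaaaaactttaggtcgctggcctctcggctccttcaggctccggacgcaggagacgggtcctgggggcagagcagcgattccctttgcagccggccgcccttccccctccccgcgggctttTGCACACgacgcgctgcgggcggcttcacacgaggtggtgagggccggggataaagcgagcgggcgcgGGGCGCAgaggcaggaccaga
Slc30a4, chr3:130228889-130229138, minus strand: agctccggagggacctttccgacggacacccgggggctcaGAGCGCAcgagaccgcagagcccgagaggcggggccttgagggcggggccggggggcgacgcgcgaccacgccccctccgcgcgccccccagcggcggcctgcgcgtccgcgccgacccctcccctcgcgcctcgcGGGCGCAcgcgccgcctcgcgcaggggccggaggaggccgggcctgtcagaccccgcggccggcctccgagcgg
Slc34a2, chr14:62143073-62143322, minus strand: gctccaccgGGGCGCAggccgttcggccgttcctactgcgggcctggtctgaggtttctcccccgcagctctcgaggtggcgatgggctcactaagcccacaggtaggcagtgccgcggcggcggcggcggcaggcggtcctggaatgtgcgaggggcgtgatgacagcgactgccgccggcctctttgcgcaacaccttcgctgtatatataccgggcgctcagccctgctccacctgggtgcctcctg
The matches stand 83 and 15 bases before the start in Slc30a2, 204 and 68 bases before it in Slc30a4, and 235 bases before it in Slc34a2, counted to the base of a match that is nearest to the start. Of the other called genes with an entry, Slc2a1 held 1 match, and Slc38a2, Slc1a2, Slc6a6, Slc30a6, Slc30a3 and Slc39a8 held 0. The STAT letters TTCNNNGAA were in 7.67% of all promoters and in 3 of the 95, and the amino acid response letters TGATGNAA in 3.40% of all and in 3 of the 95. Among the called genes the STAT letters were in Slc39a8 alone and the amino acid response letters in none. These letter matches are a description of the sequence, binding was not measured, and the letters to search for were chosen after the expression values were seen.

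The other zinc exporters had smaller changes, all positive except that of Slc30a3, and Slc30a4 and Slc30a6 passed the test. Slc30a4, the exporter whose mutation in the lethal milk mouse lowers zinc in milk, had log2 intensities of 5.99, 5.53 and 5.59 on d 2, 6.57, 7.26 and 6.80 on d 9 and 6.26, 6.86 and 6.41 on d 16. All d 2 values lay under all later ones. It rose by d 9 with a log2 change of 1.17 ± 0.24, or 2.25-fold (adjusted p = 0.0167), and by d 16 with 0.81 ± 0.24, or 1.75-fold (adjusted p = 0.0397). The d 9 call was lost without d 2 whey of dam 2 (adjusted p = 0.057) or d 9 whey of dam 2 (0.055). A block for the dam ended the d 16 call (adjusted p = 0.053), as did leaving out any of 5 single arrays, with 0.113 without d 2 whey of dam 2, 0.097 without d 2 whey of dam 3, 0.054 without d 9 whey of dam 3, 0.118 without d 16 whey of dam 2 and 0.085 without d 16 whey of dam 3.

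Slc30a6, which works in zinc transport of the early secretory pathway together with Slc30a5, had log2 intensities of 1.31, 2.80 and 3.33 on d 2, 3.76, 4.05 and 3.82 on d 9 and 4.03, 4.28 and 4.20 on d 16. It was not well above background on d 2 and was so on all later arrays. Its log2 change was 1.69 ± 0.45 by d 16 (adjusted p = 0.0272), or at least 1.51-fold, and 1.40 ± 0.45 by d 9 (adjusted p = 0.0683). Without any one of the d 16 arrays the adjusted p by d 16 was 0.059 to 0.078. By d 9 it was 0.039 without d 2 whey of dam 1 and 0.027 without d 2 whey of dam 3. Slc30a5 (log2 change 0.57 and 0.29 by d 9 and d 16), Slc30a7 of the Golgi (0.59 and 0.76) and Slc30a9 (0.78 and 0.54) were not called, and a second Slc30a5 probe gave 1.27 and 1.30. Over the family, 8 of 9 probes had a positive change from d 2 to each later day, with medians of 1.17 and 0.81 on the log2 scale. Of all tested probes, 58.4% and 52.65% had a positive change. Only 4 of the 9 were detected on d 2 and all 9 on d 9. The others thus entered through a later day, which favours a positive change. The same 9 probes gave 8 positive also with 75th percentile scaling, spike-in scaling and normexp correction.

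Slc30a3, which loads zinc into synaptic vesicles of neurons, was the only exporter that fell. Its log2 intensities were 7.79, 6.94 and 6.79 on d 2, 5.49, 5.35 and 3.94 on d 9 and 6.37, 5.68 and 5.52 on d 16, and 11.31 in serum. All d 2 values were above all later ones. The change was -2.25 ± 0.47 by d 9 (adjusted p = 0.0174), or 4.75-fold lower, and -1.32 ± 0.47 by d 16 (adjusted p = 0.0693, and 0.019 with the dam as a block). Before normalization the processed signal was 113, 108 and 137 on d 2, 40.4, 73.4 and 49.5 on d 9, 74.4, 89.9 and 66.6 on d 16 and 277 in serum, the dimmest array. With spike-in scaling the change by d 9 was -0.89 (adjusted p = 0.249). By d 16 the adjusted p was 0.026 without d 9 whey of dam 3. The probe was well above background on all 10 arrays.

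**Figure D3:**
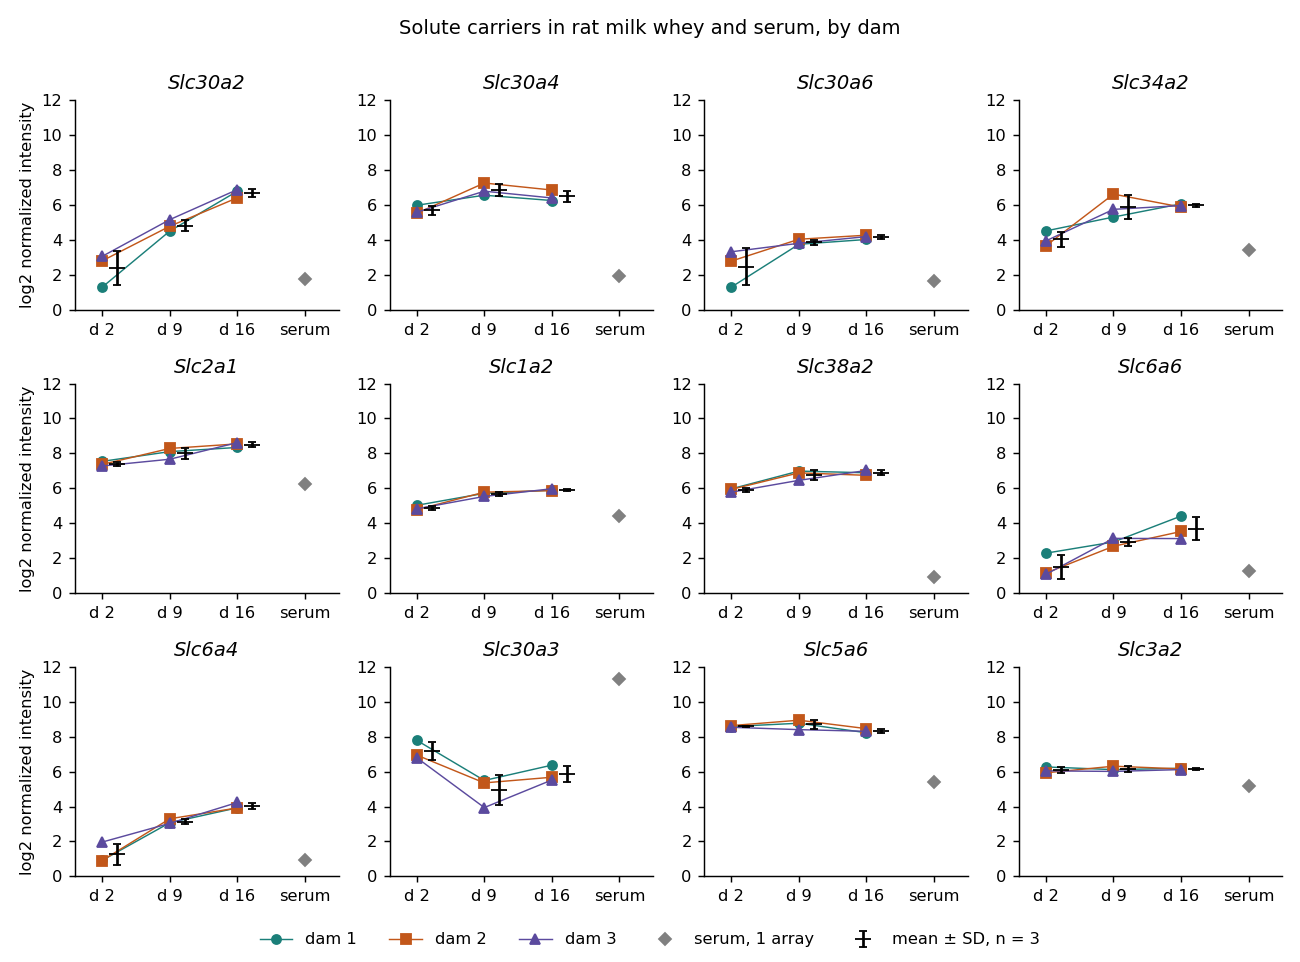
Log2 normalized intensity of 12 carriers in whey of dams 1 to 3 on d 2, d 9 and d 16, joined within a dam, with the mean ± SD of each day (n = 3) and the single serum array. Slc30a2 climbs on each day in all 3 dams. Slc30a3 is lowest on d 9 and highest on d 2 among the whey days in each dam, with its highest value in serum. Slc5a6 and Slc3a2 stay within 1 log2 unit in whey.

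No zinc importer was called higher on the later days with quantile normalization, and 1 probe was called lower. Of the 9 Slc39 probes tested, 4 had a positive and 5 a negative change from d 2 to d 9, and 3 and 6 from d 2 to d 16, with family medians of -0.33 and -0.24 on the log2 scale. The direction of these medians depended on the scaling, since with spike-in scaling, which put all probes up by a median of 1.52 by d 9 and 0.58 by d 16 (and down by 0.93 from d 9 to d 16), they were 1.17 and 0.35. Relative to the shift of all probes the medians stayed lower in each case (0.11 and 0.04 for all probes with quantile normalization). The difference between the families was not tested. Slc39a8, an importer of zinc and manganese, had log2 intensities of 7.68, 7.39 and 7.38 on d 2, 7.34, 7.24 and 6.89 on d 9 and 7.29, 7.21 and 7.24 on d 16. Its changes of -0.33 ± 0.15 and -0.24 ± 0.15 were not called (adjusted p = 0.167 and 0.277), and with spike-in scaling they turned to 1.17 and 0.35 (0.135 and 0.839). A further probe of the gene, dimmer but well above background on all whey arrays, had 4.67, 4.17 and 4.00 on d 2 and 3.62, 2.80 and 3.12 on d 16 and fell by 1.10 ± 0.30 (adjusted p = 0.0309), and the remaining probe gave -1.06 and -0.80, not called. The fall of that probe was lost without d 2 whey of dam 1 (adjusted p = 0.081) or dam 2 (0.067), or d 16 whey of dam 2 (0.097) or dam 3 (0.09), and its change by d 9 of -0.66 had an adjusted p of 0.037 with the dam as a block and 0.168 without. Slc39a6 had log2 intensities of 7.15, 7.09 and 7.01 on d 2 and 7.15, 6.70 and 6.68 on d 16 (adjusted p = 0.459), and Slc39a7, which releases zinc from the endoplasmic reticulum, had log2 changes of 0.15 and 0.28 and was not called. Slc39a14 was not detected.

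Slc34a2, the sodium-phosphate carrier of secretory epithelia such as lung, gut and mammary gland, rose from d 2 to both later days. Its log2 intensities were 4.52, 3.67 and 3.95 on d 2, 5.32, 6.63 and 5.76 on d 9 and 6.07, 5.89 and 5.98 on d 16, and 3.43 in serum, where it was not well above background. All d 2 values lay under all later ones. The log2 change was 1.85 ± 0.34 by d 9, or 3.61-fold (adjusted p = 0.012), and 1.93 ± 0.34 by d 16, or 3.81-fold (adjusted p = 0.0062). From d 9 to d 16 it was 0.08 ± 0.34 (adjusted p = 0.928). A second probe, not well above background on d 2, gave at least 1.81-fold and at least 1.96-fold, with adjusted p-values of 0.00448 and 0.00158. Under all 20 alternative settings run for d 2 to d 16 the gene's first probe kept its sign and passed the threshold, with an adjusted p of at most 0.039, but the log2 change ran from 0.64 with normexp correction to 2.55 with spike-in scaling. Slc34a3 was well above background on 1 d 16 array alone, at 4.24, and was not called. Of the phosphate carriers outside the families, Slc20a1, which takes phosphate into most cells, rose by 0.74 and 0.62 on the log2 scale (adjusted p = 0.0241 and 0.031), and Slc20a2, Xpr1 and Slc17a1 were not detected in whey.

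Among the sugar carriers, Slc2a1 rose by d 16 while the rest of its family was not called. Slc2a1, the glucose carrier through which the mammary cell is supplied for lactose synthesis, had log2 intensities of 7.54, 7.37 and 7.28 on d 2, 8.10, 8.28 and 7.67 on d 9 and 8.34, 8.54 and 8.62 on d 16, and 6.25 in serum. The days did not overlap, and its highest value was on d 16 in each dam. The change by d 16 was 1.10 ± 0.18, or 2.15-fold (adjusted p = 0.00448). By d 9 it was 0.62 ± 0.18, or 1.54-fold, with an adjusted p of 0.0506 that was 0.02 without d 9 whey of dam 3. Slc2a9, a urate carrier, had means of 5.70 ± 0.11, 5.72 ± 0.12 and 5.50 ± 0.24 (SD, n = 3) and was not called (adjusted p = 0.921 by d 9 and 0.367 by d 16). Slc2a8 was well above background on 5 of 9 whey arrays and Slc2a4, the insulin-dependent glucose carrier, on 1. Of the genes that hold glucose in the cell or regulate its uptake, Hk1, which phosphorylates glucose, fell by 1.93 and 1.11 on the log2 scale (adjusted p = 0.004 and 0.0133), Txnip, an inhibitor of glucose uptake, rose by 0.79 and 0.53 (adjusted p = 0.0108 and 0.028), and Hk2 and Hk3 were not detected.

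In the Slc5 family, 2 genes were detected and neither was called between days. Slc5a6, which carries biotin and pantothenate, had log2 intensities of 8.58, 8.63 and 8.53 on d 2, 8.77, 8.94 and 8.40 on d 9 and 8.22, 8.46 and 8.30 on d 16, and 5.43 in serum. The d 2 and d 16 values did not overlap, but the change of -0.25 ± 0.16 was not called (adjusted p = 0.259). Slc5a4a, a member of the sodium-glucose carrier family, had 9.96, 9.32 and 8.61 on d 2, 8.47, 8.26 and 6.44 on d 9 and 9.28, 8.65 and 8.84 on d 16, and 11.69 in serum. Its lowest normalized value fell on the brightest array, and before normalization its signal lay between 326 and 709 in whey and was 369 in serum, a narrow range beside the brightness of the arrays. Slc5a5, the iodide carrier of the thyroid and the lactating gland, was well above background on 3 whey arrays, 1 on d 9 and 2 on d 16, but its signal did not pass 20 and it was not tested.

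**Figure D4:**
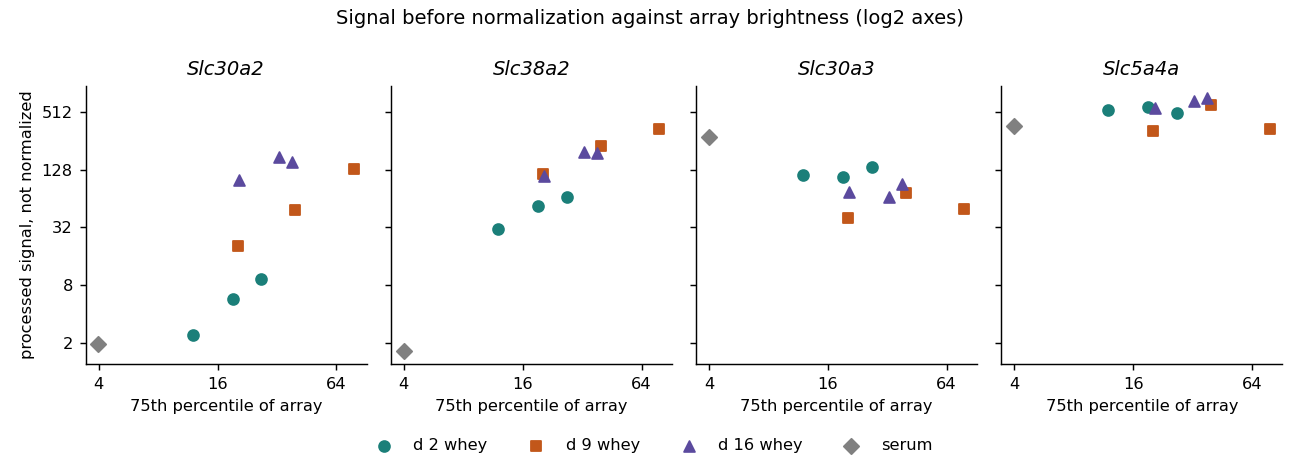
Processed signal before normalization of 4 carriers against the 75th percentile of each array, both on log2 axes, with 3 arrays for each whey day and 1 for serum. The signal of Slc38a2 follows the brightness of the array, that of Slc30a2 separates by day, and those of Slc30a3 and Slc5a4a do not climb with brightness.

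Of the amino acid carriers, Slc38a2, Slc1a2 and Slc6a6 rose, and so did the serotonin carrier Slc6a4. Slc38a2, a sodium-coupled carrier of small neutral amino acids that cells induce when amino acids run low, had log2 intensities of 5.97, 5.94 and 5.78 on d 2, 6.99, 6.89 and 6.46 on d 9 and 6.89, 6.75 and 7.02 on d 16, and 0.94 in serum. All d 2 values lay under all later ones. Its change was 0.88 ± 0.16 by d 9, or 1.84-fold (adjusted p = 0.0122, and 0.051 without d 9 whey of dam 2), and 0.99 ± 0.16 by d 16, or 1.99-fold (adjusted p = 0.00482). A second probe of the gene varied widely on d 2, with 0.84, 1.69 and 4.87, and was not called in either comparison. Slc38a10 had log2 changes of 0.12 and 0.23 and Slc38a7 of 0.15 and 0.46, and neither was called.

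Slc1a2, a glutamate carrier known from glia, was the only Slc1 gene detected. It had log2 intensities of 5.03, 4.78 and 4.83 on d 2, 5.72, 5.78 and 5.54 on d 9 and 5.90, 5.87 and 5.98 on d 16. The 3 days did not overlap and the spread within a day was at most 0.13 (SD, n = 3). The changes from d 2 were 0.80 ± 0.12, or 1.74-fold (adjusted p = 0.00665), and 1.04 ± 0.12, or 2.05-fold (adjusted p = 0.0013). A second probe of the gene was detected on no array, with processed signals of 1.90 to 3.24 in whey, and was not tested. Slc1a4 was not detected. Slc1a5, a glutamine carrier, was well above background on 1 whey array, of d 16, and on the serum array.

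Slc6a6, the taurine carrier, had log2 intensities of 2.29, 1.15 and 1.08 on d 2, 2.93, 2.68 and 3.14 on d 9 and 4.42, 3.53 and 3.13 on d 16. It was not well above background on d 2, and was so on 1 d 9 array and on all d 16 arrays. The change by d 16 was 2.18 ± 0.41 (adjusted p = 0.00772), or at least 1.17-fold. By d 9 it was 1.41 ± 0.41 with an adjusted p of 0.052, which was 0.032 with the dam as a block, 0.024 without d 2 whey of dam 1 and 0.039 without d 16 whey of dam 1. Slc6a4, which takes up serotonin and is also carried by platelets, had 0.92, 0.91 and 1.96 on d 2, 3.07, 3.30 and 3.04 on d 9 and 3.93, 3.92 and 4.23 on d 16, and 0.96 in serum. The days did not overlap. The change was 1.87 ± 0.28 by d 9 (adjusted p = 0.00647) and 2.76 ± 0.28 by d 16 (adjusted p = 0.000773), or at least 1.48-fold for d 16, with no fold for d 9, when 2 of 3 arrays measured it, because the probe stood too near background. With normexp correction the change by d 9 was 0.13 (adjusted p = 0.145). A second probe of the gene was well above background on 1 whey array, d 2 of dam 3, at 3.36, stood at 0.92 to 1.02 on all other whey arrays, and was not tested. From d 9 to d 16 the change was 0.89 ± 0.28 (adjusted p = 0.161, and 0.045 without d 2 whey of dam 3). Of 4 platelet markers on the array, Pf4 alone was tested in whey and fell by 1.73 by d 16, and the mean of the list was 1.84 to 2.30 on d 16 against 2.05 to 2.15 on d 2. Slc6a8, the creatine carrier, had log2 changes of 0.26 and 0.70 and was not called (adjusted p = 0.563 and 0.118).

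Slc3a2, the heavy chain that brings several amino acid exchangers of the Slc7 family to the cell surface, did not pass the test, with log2 intensities of 6.27, 5.93 and 6.04 on d 2, 6.11, 6.31 and 6.01 on d 9 and 6.19, 6.15 and 6.11 on d 16 (log2 changes 0.06 ± 0.13 and 0.07 ± 0.13, adjusted p = 0.765 and 0.713). Its partner Slc7a5 was well above background on 1 d 16 array and was not tested. Slc7a1, a carrier of arginine and lysine, had 1.18, 2.31 and 3.46 on d 2 and 2.90, 3.71 and 3.54 on d 16. Its changes of 0.90 ± 0.51 and 1.07 ± 0.51 were not called (adjusted p = 0.254 and 0.157), but were called without d 2 whey of dam 3 (0.041 and 0.022), the brightest d 2 array. Slc36a1 and Slc43a1 were not detected. Of 9 tested genes of amino acid sensing and response, 4 rose by d 9 and 3 by d 16. Atf4, the transcription factor that drives this response, rose by 1.07 and 0.77 on the log2 scale (adjusted p = 0.0043 and 0.0065), Trib3 by 1.58 and 1.14 (0.003 and 0.0039) and Chac1 by 1.73 and 0.98 (0.0057 and 0.0237), both known targets of Atf4. Asns, asparagine synthetase, rose by 0.69 by d 9 (adjusted p = 0.0412) and was not called by d 16 (0.22, adjusted p = 0.406), and its change from d 9 to d 16 was not called either. Ddit3, Eif2ak4, Mtor, Rragc and Rragd were not called.

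The monocarboxylate carriers were dim. Slc16a1, which moves lactate, had log2 intensities of 0.98, 0.99 and 0.92 on d 2, 2.19, 2.77 and 2.53 on d 9 and 0.95, 3.69 and 2.52 on d 16, and was well above background on 1 d 9 and 1 d 16 array. Its changes of 1.54 ± 0.59 and 1.42 ± 0.59 were not called (adjusted p = 0.108 and 0.107). Without d 16 whey of dam 1, where it was near its d 2 level, both were called (adjusted p = 0.022 and 0.009). Without d 16 whey of dam 2 the change by d 9 was called (0.044). That array alone gave a processed signal above 20, so the probe would not have entered the tests without it. Slc16a3, the lactate exporter of glycolytic cells, was well above background on 1 d 16 array, of dam 2, at 4.86. It was not called (adjusted p = 0.441 and 0.337). Without that array its change by d 9 had an adjusted p of 0.028 (limma). That refit decides nothing, since no remaining whey array measured the probe well above background. Slc16a6 was well above background on all d 9 and d 16 arrays and on no d 2 array, with changes of 0.56 and 0.54 that were not called. Bsg, the partner that carries Slc16a1 and Slc16a3 to the membrane, was well above background on all arrays and not called (log2 changes -0.49 and 0.25).

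Among the other fixed partners and sensors, Sgk1, a kinase that raises the surface abundance of several sodium-coupled carriers, rose by 1.82 and 1.30 on the log2 scale (adjusted p = 0.0199 and 0.0429). Slc9a3r1, a scaffold protein, and Nedd4l, a ubiquitin ligase, were not called (adjusted p = 0.436 and 0.142 by d 16), and Emb, Tmem27 and Pdzk1 were not detected in whey. The metallothioneins, which bind zinc and respond to it, did not pass the test. Mt1a had log2 changes of -0.79 and 0.17 and Mt2A of -0.13 and 1.03 (adjusted p = 0.211 and 0.791, and 0.887 and 0.192). The zinc sensor Mtf1 and Mt3 were well above background on 1 whey array each and were not tested. No gene of these 5 lists passed from d 9 to d 16.

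Serum was compared with whey without a test, since it had 1 array. It detected 2 carriers, Slc30a3 and Slc5a4a, and both were also detected in whey. Of the 61 member probes that the serum array or any whey array measured well above background, whey exceeded serum over 4-fold for 16 (27.2% of all such probes) and serum exceeded whey over 4-fold for 9 (15.8%). None of the 16 was well above background in serum, and only Slc5a6 passes 4-fold by its bound, whereas 6 of the 9 were measured in serum and pass 4-fold by bound or value. These counts moved with the scaling, to 7 and 16 with 75th percentile scaling, 32 and 1 with spike-in scaling and 1 and 2 with normexp correction. The serum array was dim, and its lowest signal well above background corresponds to 5.85 on the normalized log2 scale. All higher whey levels are therefore bounds or give no fold, and among the largest bounds were at least 6.43-fold for Slc5a6, 3.30-fold for Slc2a1, 2.72-fold for Slc39a8, 2.25-fold for Slc39a6, 1.59-fold for Slc38a2, 1.43-fold for Slc30a4 and 1.21-fold for Slc3a2. For Slc30a2 the whey mean lay under the serum floor, so no fold is given, and its d 16 mean of 6.70 lay above it. Only 3 member probes were well above background on all 10 arrays. Slc30a3 was 40.0-fold and Slc5a4a 8.23-fold higher in serum than in the mean of whey, and the zinc importer Slc39a3 1.51-fold, within the range of its whey values (4.77 to 6.88, against 6.14 in serum). With spike-in scaling Slc5a4a turned, with 0.48 log2 units more in whey. The size of the Slc30a3 fold also rests on the normalization. Before it, the processed signal of Slc30a3 was 277 in serum and 40.4 to 137 in whey. Of the probes that serum measured and whey mostly did not, a second probe of Slc2a4 was at least 24.4-fold higher in serum (0 of 9 whey arrays measured it). The zinc importer Slc39a1 was at least 19.96-fold higher (2 of 9), the renal glucose carrier Slc5a2 at least 14.3-fold (2 of 9) and a probe of Slc1a5 at least 8.72-fold (1 of 9). The other probe of Slc2a4 was not well above background in serum (0.94), and that of Slc1a5 had a processed signal of 2.04 there. These bounds hold on the normalized scale alone. Before normalization the first Slc1a5 probe had a processed signal of 9.17 in serum and 1.93 to 18.2 in whey. Erythroid and platelet markers were high in serum, with means of 11.54 and 12.97 on the log2 scale, against at most 2.06 and 2.30 on any whey array, and their part in the serum carriers was not tested.

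**Figure D5:**
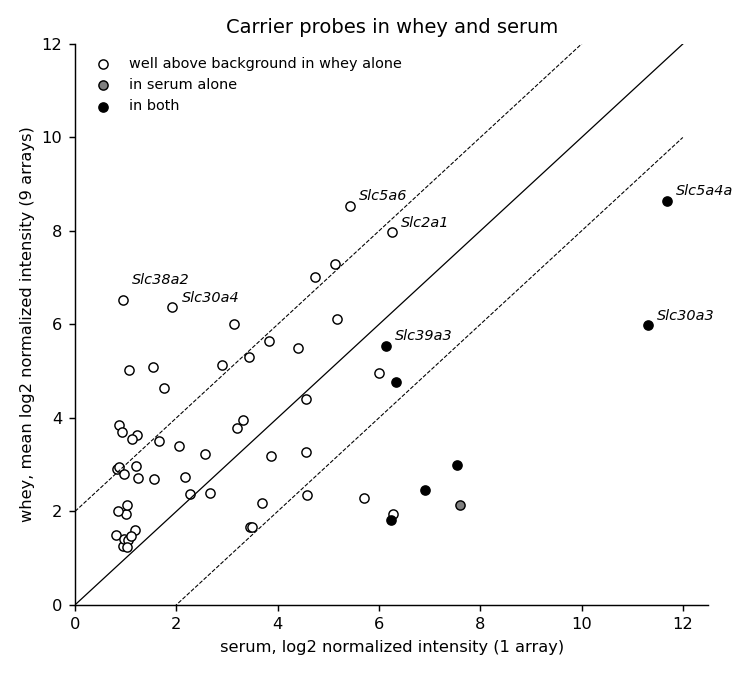
Mean log2 normalized intensity over the 9 whey arrays against that of the single serum array for the 61 carrier probes well above background on serum or on at least 1 whey array. The solid line marks equal levels and the dashed lines 4-fold differences, and only Slc30a3, Slc5a4a and a few dimmer probes are well above background in serum.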

How the data were processed

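Milk whey RNA of 3 dams on d 2, d 9 and d 16 and mixed serum RNA were labelled with Cy3 on 1-colour Agilent Whole Rat Genome arrays. Per the file headers, the deposited intensity values are Feature Extraction processed signals, background-subtracted and not normalized between arrays, and the deposited flags, used here as other values, mark spots well above background and outliers. A deposited table of the whole series held 10 columns whose names match no sample label, and it was not used. Here, log2 signals were quantile normalized over the 10 arrays (limma 3.58.1, R 4.3.3), as in the study's methods, without control and outlier spots, and the spots of a probe were averaged. Probes well above background with a signal above 20 on at least 1 whey array (16849) were fitted with lmFit and eBayes over the 9 whey arrays, with Benjamini-Hochberg adjustment at 0.05, and scripts were tested on simulated data. Every test is two-sided. Serum was not tested.

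A fold against a day on which no array was well above background is a bound, the brighter mean over that day's mean of the higher of the array's lowest signal well above background and the probe's own signal. The text names, per pair of days, the 8 largest rises and falls among called genes, the 5 largest differences from serum each way among genes well above background on all 10 arrays, and a list of carriers known in the lactating gland; other members were named after their values were seen. The members and lists were chosen with earlier results of these data known. By the sample titles, the dam numbers mark the same animal. Same-dam deviations from the day means correlated between -0.018 and 0.218 over 9 pairs, and different dams between -0.254 and 0.158 over 18 pairs. These ranges overlap, so the correlations alone do not show which arrays share a dam. The alternatives were scaling by the 75th percentile or the spike-ins, normexp correction, other filters, blocks for dam and slide, the Tukey-Kramer test and leaving out each array. A few genes that enter the counts are not reported here by name.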

Additional observations from a re-analysis of the deposited data

How the results depend on the processing

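From d 2 to d 9 the 9 called member probes became 26 with spike-in scaling, where 40.8% of all tested probes were called. They became 4 by the Tukey-Kramer test (7.64% of all probes) and 0 with the slide as a fixed block (0.867%). The count was 7 to 14 when single arrays were left out. From d 2 to d 16 the 12 became 7 with spike-in scaling (4.47% of all tested probes called) and 7 of 19 with a minimum signal of 100 (43.0%). They became 7 of 17 with well above background required on all 9 whey arrays (40.4%), and 9 to 14 when single arrays were left out. From d 9 to d 16 the 0 became 1 with 75th percentile scaling, 2 with normexp correction, 1 with a minimum signal of 100, 2 with the slide as a random block and 1 with the arrays of those days alone, and 0 to 1 when single arrays were left out. The F test's 12 became 7 with well above background on all 9 arrays, and 8 to 13 when single arrays were left out. With the dam as a replicate block these 4 counts were 13, 12, 0 and 13, and of the named genes refitted under every setting the block changed the calls of Slc30a3, Slc30a4, Slc6a6 and an Slc39a8 probe and no other. The 44 probes detected in whey became 19 with a minimum signal of 100 and 24 when all arrays of a day were required, and 36 to 44 when single arrays were left out, and the 2 in serum became 8 with no minimum. The 16 probes higher in whey than serum became 7 with 75th percentile scaling, 32 with spike-in scaling, 1 with normexp correction and 0 of the probes well above background on all 10 arrays, and 16 to 18 when single arrays were left out. The 9 higher in serum became 16, 1, 2 and 2 under the same settings, and stayed 9 when single arrays were left out. Whey minus serum of Slc5a4a turned to 0.48 with spike-in scaling. Of 419 refits of the 21 named called changes, 362 passed, 57 did not and 0 turned. The causes were not tested, and signal near background limits the folds against d 2 and serum.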
